A study of Mus musculus with 15 samples.

Results

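The genes described here are 9 mouse transcripts that mark neutrophils: S100a8, S100a9, Csf3r, Cxcr2, Retnlg, Ngp, Ltf, Lcn2 and Camp. They were chosen by symbol from a table of 23420 gene rows, and all 9 were found. All 9 also reached 1 TPM (transcript abundance per length, scaled so that each library has the same total) in at least 3 of the 15 libraries, as did 13592 genes in all.

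The libraries were made from bulk melanoma grafts grown in female C57BL/6 mice aged 8 weeks, 3 per group. Every mouse received 1000000 cells per flank, left-flank tumors received therapy on days 8, 10 and 12, and the harvest was on day 13. Of the 5 groups, 3 carried the parental line D4M.3A.3, under triple therapy, under anti-PD-1 (a blocking antibody to PD-1, an inhibitory receptor of T cells) or under isotype control antibody. The others carried D3UV2, called UV2, a line with putative neoantigens from UVB light, under anti-PD-1 or under isotype control antibody. Triple therapy joined imiquimod, a cream whose target is the RNA sensor Tlr7, to ablative fractional photothermolysis, in which a laser drills fine channels into the skin. The sample characteristics add anti-PD-1 to it, whereas the treatment protocol adds isotype antibody, so which antibody these tumors received is unknown. The protocol also names a lotion as the alternative to imiquimod, without saying which groups received it. Whether the replicates of a group are different mice is not stated in the labels, so p-values here reflect the spread between samples, which may be technical. No triple therapy group of UV2 tumors and no group with the laser or the cream alone was analysed, so their parts in a difference cannot be told apart. The labelled tissue was checked against pigment cell genes. The lineage factor Sox10 had a median of 0.11 TPM over the 15 libraries. Mlana, Dct and Tyrp1 were listed at 0 in 10, 11 and 11 of the 15 libraries. Mitf had a median of 9.61 TPM. Tyr ran from 1.49 to 4.57 TPM with a median of 2.65 TPM, and was listed at 0 in 0 libraries. Pmel had a median of 0.55 TPM and was listed at 0 in 1 library.

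Neutrophils are short-lived white blood cells that leave the bone marrow under the growth factor G-CSF and enter injured or infected tissue along gradients of chemokines. They store antimicrobial proteins in granules that are filled in sequence while the cell matures. The genes of primary granules (such as Mpo and Elane) are transcribed in early marrow precursors and those of secondary granules (Ngp, Ltf, Camp and Lcn2) in later ones. Mature neutrophils keep the proteins while these transcripts decline. S100a8 and S100a9 encode partner calcium-binding proteins of the cytosol rather than of granules, and together they form calprotectin, one of the most abundant proteins of the mature cell. Csf3r is the receptor for G-CSF, Cxcr2 is the receptor for Cxcl1, Cxcl2 and Cxcl5, and Retnlg encodes a resistin-like secreted protein of mouse myeloid cells. S100a8, S100a9 and Lcn2 are also made by wounded or inflamed keratinocytes, the cells of the epidermis, so their level in skin tissue is not a neutrophil measure on its own.

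On GRCm38 (GENCODE M21), S100a8 lies on chromosome 3 from 90668978 to 90670035 on the forward strand and S100a9 from 90692632 to 90695721 on the reverse strand. Camp (109847379 to 109849617, reverse), Ngp (110419747 to 110423012, forward) and Ltf (111019271 to 111042767, forward) all lie on chromosome 9. Cxcr2 is on chromosome 1 (74153989 to 74161246, forward), Lcn2 on chromosome 2 (32384633 to 32388252, reverse), Csf3r on chromosome 4 (126024550 to 126044440, forward) and Retnlg on chromosome 16 (48872621 to 48874496, forward). All 9 are protein-coding. The 250 bases before the RefSeq start of transcription are printed below for 5 of the genes, S100a8 with S100a9 and the secondary granule genes Ngp, Ltf and Camp. They come from RefSeq on GRCm38.p6 and run 5′ to 3′ on the gene's strand. RefSeq starts differ from the GENCODE bounds above for S100a8, Ngp, Ltf and Camp, and their windows reach into those bounds. The same held for Csf3r and Cxcr2, and the Lcn2 window lay wholly inside the GENCODE bounds of Lcn2. These windows are counted below but not printed. Capitals mark every match, on either strand, to TTGCNNAA (a core of C/EBP binding sites) or GAGGAA (a core of PU.1 binding sites). C/EBP factors and PU.1 are transcription factors of myeloid cells.
S100a8, chr3:90668821-90669070, forward strand: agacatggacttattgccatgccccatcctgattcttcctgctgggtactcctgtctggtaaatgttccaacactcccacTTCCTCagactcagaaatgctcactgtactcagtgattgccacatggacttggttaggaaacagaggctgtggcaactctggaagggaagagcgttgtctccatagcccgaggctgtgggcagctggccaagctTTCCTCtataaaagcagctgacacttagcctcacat
S100a9, chr3:90695722-90695971, reverse strand: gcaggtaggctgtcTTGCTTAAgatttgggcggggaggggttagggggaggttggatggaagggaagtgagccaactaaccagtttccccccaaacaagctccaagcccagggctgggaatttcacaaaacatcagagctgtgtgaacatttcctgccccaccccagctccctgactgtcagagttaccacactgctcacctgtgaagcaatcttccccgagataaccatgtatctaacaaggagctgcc
Ngp, chr9:110419558-110419807, forward strand: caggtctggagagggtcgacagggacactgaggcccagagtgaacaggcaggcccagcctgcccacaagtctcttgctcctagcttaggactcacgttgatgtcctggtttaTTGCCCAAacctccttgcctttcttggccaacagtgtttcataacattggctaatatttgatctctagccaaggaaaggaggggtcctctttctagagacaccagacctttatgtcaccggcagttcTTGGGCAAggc
Ltf, chr9:111019042-111019291, forward strand: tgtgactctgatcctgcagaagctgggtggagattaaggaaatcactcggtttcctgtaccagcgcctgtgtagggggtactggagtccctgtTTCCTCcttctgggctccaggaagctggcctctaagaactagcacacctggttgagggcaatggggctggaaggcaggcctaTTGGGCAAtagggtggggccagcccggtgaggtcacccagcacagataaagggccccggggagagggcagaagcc
Camp, chr9:109849457-109849706, reverse strand: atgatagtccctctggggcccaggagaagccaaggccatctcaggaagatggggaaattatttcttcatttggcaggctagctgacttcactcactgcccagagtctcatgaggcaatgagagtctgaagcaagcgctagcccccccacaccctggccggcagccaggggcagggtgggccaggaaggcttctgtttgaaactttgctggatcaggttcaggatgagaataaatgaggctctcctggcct

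The C/EBP letters occurred in 5 of the 9 windows (S100a9, Retnlg, Ngp, Ltf and Lcn2) and in 9.6% of 32851 mouse promoter windows of the same length. Ngp held 2 of these matches, beginning 138 and 11 bases before its RefSeq start, the nearer one inside its GENCODE bounds. The PU.1 letters also occurred in 5 of the 9 (S100a8, Csf3r, Cxcr2, Ltf and Lcn2), against 23.3% of all windows. S100a8 had 2 matches, 170 and 36 bases before its RefSeq start, the nearer one inside its GENCODE bounds and directly before a TATAAAA run. TGANTCA, the site of AP-1, was found in 0 of the 9 windows and in 6.7% of all. The Camp window had no match to any of these letters. S100a8 and S100a9 shared no match in these windows. These matches describe letters, not binding, and no binding data were analysed.

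S100a8 and S100a9 were highest in parental tumors under triple therapy. S100a8 stood at 1618, 46.4 and 220.2 TPM in triple therapy replicates 1, 2 and 3, at 21.5, 5.54 and 8.95 TPM under parental anti-PD-1, and at 13.7, 3.86 and 36.9 TPM under parental isotype. The UV2 tumors had 24.0, 79.2 and 14.6 TPM under anti-PD-1 and 9.76, 85.5 and 15.3 TPM under isotype. All 3 triple therapy libraries lay above all 6 other parental libraries, but they spanned a wide range, and replicate 2 lay below the highest library of each UV2 group. S100a9 gave nearly the same numbers: 1536, 49.8 and 215.5 TPM under triple therapy, 21.9, 9.05 and 7.45 TPM under parental anti-PD-1, and 5.81, 4.77 and 40.1 TPM under parental isotype. In UV2 tumors it had 23.0, 76.7 and 12.1 TPM under anti-PD-1 and 7.82, 86.3 and 12.7 TPM under isotype. Triple therapy replicate 1 alone held 73.4% of all S100a8 TPM summed over the 15 libraries and 72.8% of all S100a9 TPM. The ratio of S100a8 to S100a9 had a median of 1.03 over the libraries, with a range of 0.612 to 2.37.

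Lcn2, which encodes a secreted protein that binds bacterial iron carriers, was less concentrated in one library. It had 56.3, 28.9 and 17.4 TPM under triple therapy, 30.2, 1.79 and 12.3 TPM under parental anti-PD-1, and 2.53, 3.20 and 18.9 TPM under parental isotype. UV2 tumors had 4.02, 3.54 and 2.83 TPM under anti-PD-1 and 0, 9.64 and 0.890 TPM under isotype. The parental groups overlapped each other, and every triple therapy library lay above every UV2 library. It was the only 1 of the 9 genes for which all 3 parental means exceeded both UV2 means.

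**Figure D1:**
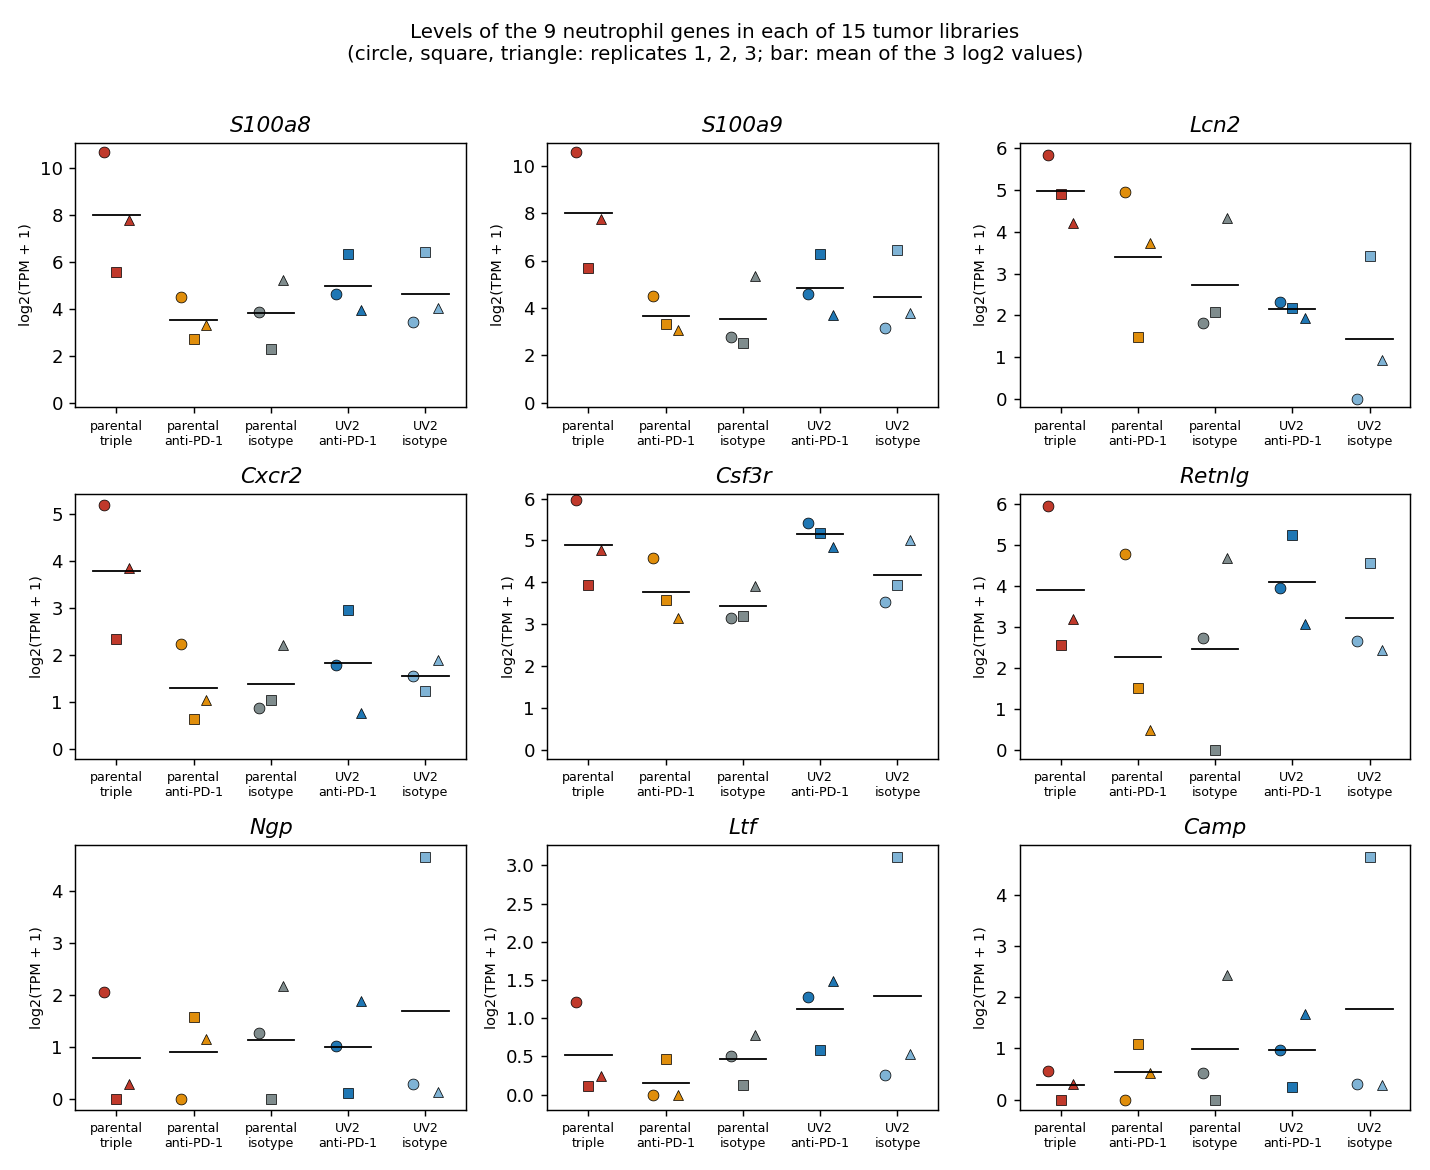
Level of each of the 9 genes as log2(TPM + 1) in every library, by group, with circles, squares and triangles for replicates 1, 2 and 3 and a bar at the mean of the 3 log2 values. Triple therapy replicate 1 (red circle) is the highest library for S100a8, S100a9, Lcn2, Cxcr2, Csf3r and Retnlg, and UV2 isotype replicate 2 (light blue square) is the highest for Ngp, Ltf and Camp.

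Cxcr2, through which neutrophils sense Cxcl1, Cxcl2 and Cxcl5, followed the order of S100a8 and S100a9. Its level was 35.6, 4.05 and 13.3 TPM under triple therapy, 3.68, 0.560 and 1.06 TPM under parental anti-PD-1, and 0.840, 1.07 and 3.63 TPM under parental isotype. In UV2 tumors it was 2.46, 6.75 and 0.710 TPM under anti-PD-1 and 1.94, 1.35 and 2.71 TPM under isotype. The lowest triple therapy library, replicate 2, was above all 6 other parental libraries and below UV2 anti-PD-1 replicate 2.

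Csf3r, the G-CSF receptor, was spread most evenly over the libraries. It had 61.6, 14.3 and 26.4 TPM under triple therapy, 22.9, 11.01 and 7.87 TPM under parental anti-PD-1, and 7.89, 8.23 and 14.2 TPM under parental isotype. UV2 tumors had 41.4, 35.3 and 27.7 TPM under anti-PD-1 and 10.7, 14.4 and 31.2 TPM under isotype. The highest group mean was that of UV2 anti-PD-1, 34.8 ± 6.86 TPM, followed by triple therapy at 34.1 ± 24.5 TPM (SD, n = 3 each), and these groups overlapped. Triple therapy replicate 1 held 18.4% of the Csf3r sum over the libraries.

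Cxcr2 also differed from Csf3r in proportion. The ratio of Cxcr2 to Csf3r TPM was 0.578, 0.282 and 0.504 in the triple therapy libraries and at most 0.257 in the other 12 libraries. This ratio was singled out after its values were seen and was not tested.

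Retnlg varied widely inside every group. Its level was 61.4, 5.0 and 8.16 TPM under triple therapy, 26.8, 1.86 and 0.410 TPM under parental anti-PD-1, and 5.74, 0 and 25.1 TPM under parental isotype. UV2 tumors had 14.5, 37.0 and 7.54 TPM under anti-PD-1 and 5.38, 22.7 and 4.52 TPM under isotype. All 5 groups overlapped, and triple therapy replicate 1 held 27.2% of the sum.

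The secondary granule genes Ngp, Ltf and Camp had a different high library. Camp, the precursor of the cathelicidin antimicrobial peptide, had 25.7 TPM in UV2 isotype replicate 2 and 0.240 and 0.220 TPM in the other UV2 isotype libraries. Its next highest library was parental isotype replicate 3 with 4.38 TPM, and the triple therapy libraries had 0.470, 0 and 0.230 TPM. Ngp, neutrophilic granule protein, had 24.1 TPM in UV2 isotype replicate 2, 3.50 TPM in parental isotype replicate 3, and 3.21, 0 and 0.220 TPM under triple therapy. Ltf, the iron-binding lactoferrin, had 7.62 TPM in UV2 isotype replicate 2, 1.81 TPM at most elsewhere, and 1.31, 0.0800 and 0.180 TPM under triple therapy. UV2 isotype replicate 2 held 70.3% of the Camp sum, 60.5% of the Ngp sum and 50.3% of the Ltf sum.

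Summed over Ngp, Ltf and Camp, UV2 isotype replicate 2 reached 57.4 TPM and the next library, parental isotype replicate 3, reached 8.60 TPM. Per unit of Csf3r this library had 3.98, against at most 0.608 in the other 14. The primary granule genes Mpo, Elane, Prtn3, Ctsg and Ms4a3 summed to 19.9 TPM there and to at most 8.19 TPM in any other library. Elane, neutrophil elastase, had 4.0 TPM in it and at most 0.590 TPM elsewhere, Mpo, myeloperoxidase, had 2.41 TPM and at most 0.980 TPM elsewhere, and the protease gene Prtn3 had 8.16 TPM and at most 3.19 TPM elsewhere. Ctsg, cathepsin G, stood at 4.91 TPM there but at 7.46 TPM in parental anti-PD-1 replicate 1, and Ms4a3 had 0.450 TPM there and 0.430 TPM in parental anti-PD-1 replicate 2. The sums of both sets were highest in the same library, while Lcn2, also a secondary granule gene, was not highest there, with 9.64 TPM against 56.3 TPM in triple therapy replicate 1. With 1 library of 3 carrying them, this is a description of that library and not of UV2 tumors. Triple therapy replicate 1, which had the most S100a8, had 4.99 TPM for the summed secondary set and 3.49 TPM for the primary set.

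**Figure D2:**
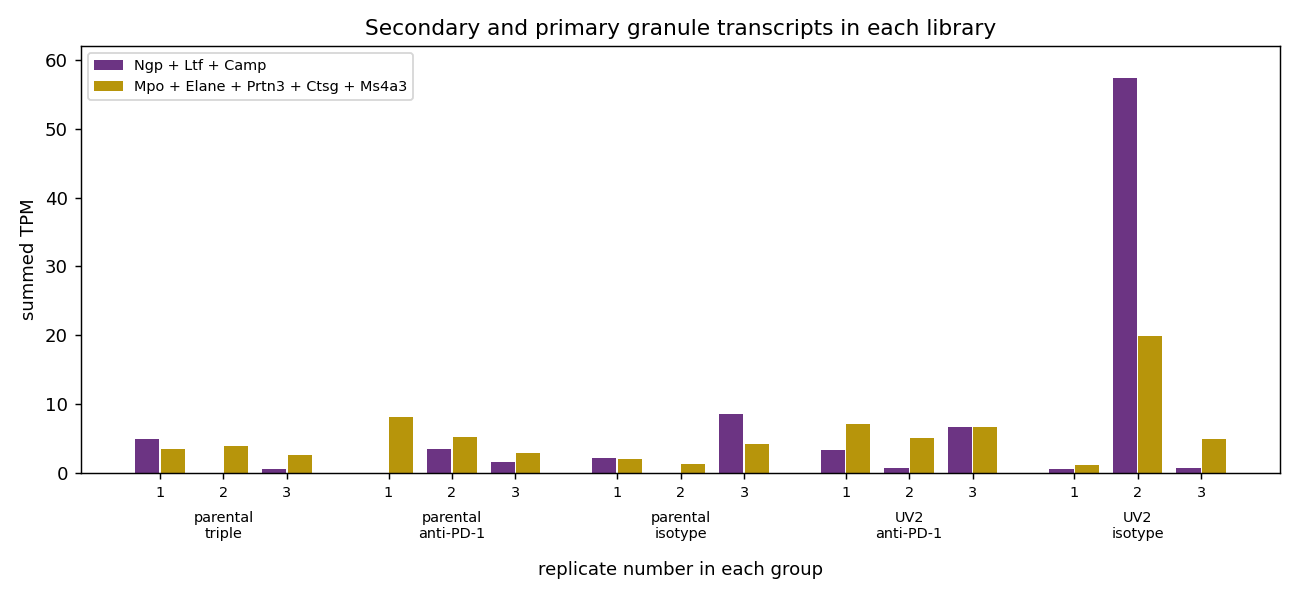
Summed TPM of the secondary granule genes Ngp, Ltf and Camp (purple) and of the primary granule genes Mpo, Elane, Prtn3, Ctsg and Ms4a3 (gold) in each library, with replicate numbers under the bars and groups under these. UV2 isotype replicate 2 stands at 57.4 TPM for the secondary and 19.9 TPM for the primary set, while no other library passes 8.60 TPM for either.

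The first comparison set triple therapy against isotype in parental tumors. Of the 9 genes, 0 were called at an adjusted p under 0.05 (limma on log2(TPM + 1), Benjamini-Hochberg over 13592 genes), where 0.0221% of all genes tested, 3 keratin genes, were called. S100a9 was higher by 4.45 ± 1.20 on the log2 scale (± SE here and below, n = 3 libraries per group), with a limma adjusted p of 0.313. S100a8 had a log2 fold change of 4.20 ± 1.19 (limma adjusted p = 0.316) and Cxcr2 one of 2.41 ± 0.70 (limma adjusted p = 0.320). Csf3r had 1.47 ± 0.51 (limma adjusted p = 0.339) and Lcn2 2.24 ± 0.96 (limma adjusted p = 0.371). For S100a8, S100a9, Cxcr2 and Csf3r all 3 triple therapy libraries lay above all 3 isotype libraries, 4 of 9 genes where 12.7% of all genes did so in that direction. Unadjusted p-values were under 0.05 for 5 of the 9 genes, all higher, against 12.6% of all genes in either direction. The remaining genes were not separated: Retnlg had 1.43 ± 1.31, Ltf 0.05 ± 0.60, Ngp -0.36 ± 1.05 and Camp -0.69 ± 0.98, with limma adjusted p-values of 0.672 to 0.977. The median log2 fold change of the 9 genes was 1.47, against 0.12 over all genes tested, and the median of all genes was 0.00 after median-of-ratios scaling and -0.09 after quantile normalization.

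Leaving out triple therapy replicate 2, the library with the least S100a8 of that group, brought S100a8 (5.42, adjusted p = 0.0364), S100a9 (5.62, adjusted p = 0.0367) and Cxcr2 (3.14, adjusted p = 0.0395) past the limma threshold. The share of all genes called without that library is not given here, so whether the calls are particular to these genes is unknown. Leaving out replicate 1 or 3, or any isotype library, gave 0 calls. Without replicate 1, the library with the most S100a8, the log2 fold changes were 2.88 for S100a8, 3.16 for S100a9 and 1.71 for Cxcr2, and the median of the 9 was 0.93. Weighting libraries by their spread gave 6 calls, but 1 triple therapy library, replicate 3, then had a weight of 73.8 and the estimate did not converge. No share of all genes is given for that fit. In bulk tissue, more neutrophils and more of these transcripts per neutrophil cannot be told apart.

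Keratinocyte transcripts moved with these values. Krt14, a keratin of the basal epidermis, had 11620, 85.7 and 844.9 TPM in triple therapy replicates 1, 2 and 3, 69.5 TPM in UV2 anti-PD-1 replicate 3 and no more than 0.630 TPM in any of the remaining 11 libraries. All 23 tested genes of a list of keratinocyte genes had positive fold changes under triple therapy against isotype, with a median of 5.34, and 3 rose past the threshold (Krt16, Krt6b and Krt6a, limma adjusted p = 0.0462 each). Under median-of-ratios or quantile scaling 0 of these 3 were called. The summed TPM of the 25 keratinocyte genes in the table ran over 453.3 to 44360 in triple therapy libraries, 255.7 to 333.1 under parental anti-PD-1 and 223.8 to 358.6 under parental isotype. The triple therapy libraries kept the same order in Krt14, S100a8, S100a9, Cxcr2 and Csf3r, with replicate 1 highest and replicate 2 lowest, whereas Lcn2 was lowest in replicate 3.

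Erythrocyte transcripts, a sign of blood in the tissue, were also summed. Over 8 genes their TPM ran over 422.5 to 1147 in triple therapy libraries, 96.98 to 441.2 under parental anti-PD-1 and 208.3 to 415.4 under parental isotype. UV2 tumors had 81.55 to 2044 under anti-PD-1, the highest sum of all libraries, and 126.8 to 192.5 under isotype. Between 0 and 3 of the 8 were listed at 0 in a triple therapy library, 3 or 4 in one under parental anti-PD-1 and 3 in each under parental isotype. Of the 6 tested, 0 were called in either triple therapy comparison, 4 had positive log2 fold changes against isotype (median 1.10) and 6 against anti-PD-1 (median 1.55). Their part in the differences of the 9 genes was not tested.

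**Figure D3:**
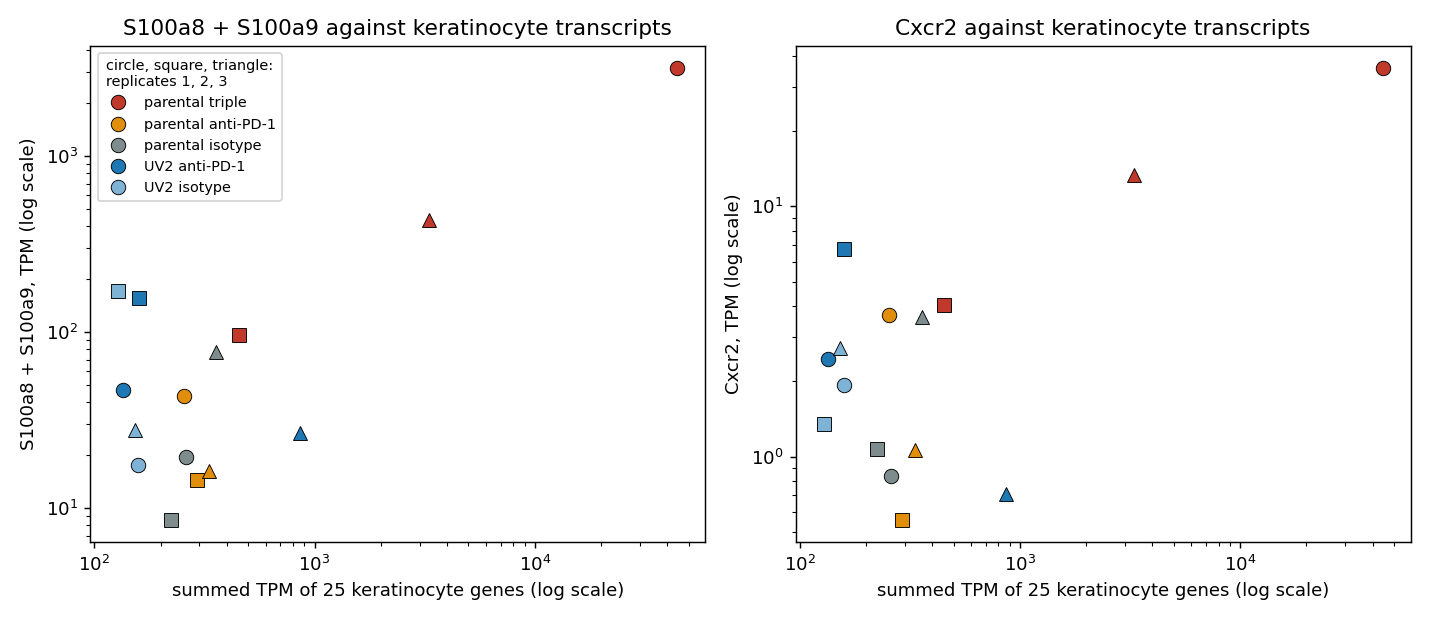
Summed S100a8 and S100a9 TPM (left) and Cxcr2 TPM (right) against the summed TPM of 25 keratinocyte genes, 1 point per library, all axes logarithmic. Triple therapy replicates 1 and 3 stand apart at 44360 and 3300 TPM of keratinocyte genes, and UV2 anti-PD-1 replicate 3, the next at 862.2 TPM, has 26.7 TPM of S100a8 and S100a9 and the second lowest Cxcr2 level.

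With the keratinocyte level as a covariate in the fit, the log2 fold changes under triple therapy against isotype were 2.18 for S100a9, 1.75 for S100a8, 1.29 for Cxcr2, 0.39 for Csf3r and 1.73 for Lcn2, and 0 of 9 genes were called (limma adjusted p = 0.985). The part of keratinocytes in the unadjusted differences was not tested beyond this, since that level was high mainly in the treated group.

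Per unit of Csf3r, a gene not known as a keratinocyte product, S100a8 and S100a9 together stood at 51.2, 6.71 and 16.5 in triple therapy libraries, against 2.48, 1.05 and 5.44 in parental isotype libraries. The groups did not overlap. For the tests, log2 ratios were taken after adding 1 TPM to both parts of each ratio, so they differ slightly from the plain ratios printed here. The mean log2 ratio was 4.10 under triple therapy and 1.21 under isotype, a difference of 2.89 (two-sided exact permutation p = 0.1, the smallest that 3 against 3 libraries can give). The highest ratio outside triple therapy was 11.9 in UV2 isotype replicate 2, above triple therapy replicate 2. For Lcn2 per unit of Csf3r the plain ratios were 0.914, 2.01 and 0.658 under triple therapy and 0.321, 0.389 and 1.34 under isotype, which overlapped. With 1 TPM added as above, the mean log2 ratio was 0.09 under triple therapy and -0.69 under isotype, a difference of 0.78 (two-sided exact permutation p = 0.3).

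Triple therapy was also set against anti-PD-1 in parental tumors. The triple therapy libraries are those of the first comparison, so the values below are not separate support. Here 0 of 9 genes were called, as were 0% of all genes tested. The limma log2 fold changes were 4.50 ± 1.19 for S100a8 and 4.36 ± 1.20 for S100a9 (adjusted p = 0.377 each), and 2.49 ± 0.70 for Cxcr2 (adjusted p = 0.382). Lcn2 had 1.59 ± 0.96 (adjusted p = 0.613) and Csf3r 1.12 ± 0.51 (adjusted p = 0.473). S100a8, S100a9 and Cxcr2 did not overlap between the groups, 3 of 9 genes where 7.30% of all genes were likewise higher. Unadjusted p-values were under 0.05 for 4 of the 9, against 10.4% of all genes in either direction. Without triple therapy replicate 2, S100a8 (5.72, adjusted p = 0.0361), S100a9 (5.53, adjusted p = 0.0437) and Cxcr2 (3.21, adjusted p = 0.0417) passed the limma threshold. Again no share of all genes is given for that fit. Without replicate 1 the log2 fold changes were 3.17 for S100a8, 3.07 for S100a9 and 1.78 for Cxcr2, with 0 calls, and the median of the 9 was 0.62, against 1.59 with it.

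Anti-PD-1 was compared with isotype antibody in each line. In parental tumors 0 of 9 genes were called, against 0% of all genes, and 0 had an unadjusted limma p under 0.05, against 0.611% of all genes. Their fold changes had a median of -0.22, against 0.07 over all genes, and 3 of 9 were positive. S100a8 averaged 12.0 ± 8.41 TPM under anti-PD-1 and 18.16 ± 16.95 TPM under isotype (SD, n = 3 each). In UV2 tumors 0 of 9 genes were called, against 0.0147% of all genes, and 0 had an unadjusted limma p under 0.05, against 9.16% of all genes. The smallest adjusted p there was that of Csf3r, 0.557 by limma, with a log2 fold change of 0.98 ± 0.51. It averaged 34.8 ± 6.86 TPM under anti-PD-1 and 18.8 ± 10.9 TPM under isotype (SD, n = 3 each), and the groups overlapped.

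Without UV2 isotype replicate 2, the log2 fold changes of Ngp, Ltf and Camp in UV2 tumors moved to 0.79, 0.73 and 0.66, against -0.69, -0.18 and -0.82 with it, and none passed the limma threshold (adjusted p = 0.257 to 0.523). The difference between the anti-PD-1 effects of the lines was tested as an interaction. It was called for 0 of 9 genes and for 0% of all genes, 0 of 9 had an unadjusted p under 0.05 against 2.97% of all genes, and the smallest limma adjusted p among the 9 was 0.803, for Csf3r at 0.63 ± 0.72.

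**Figure D4:**
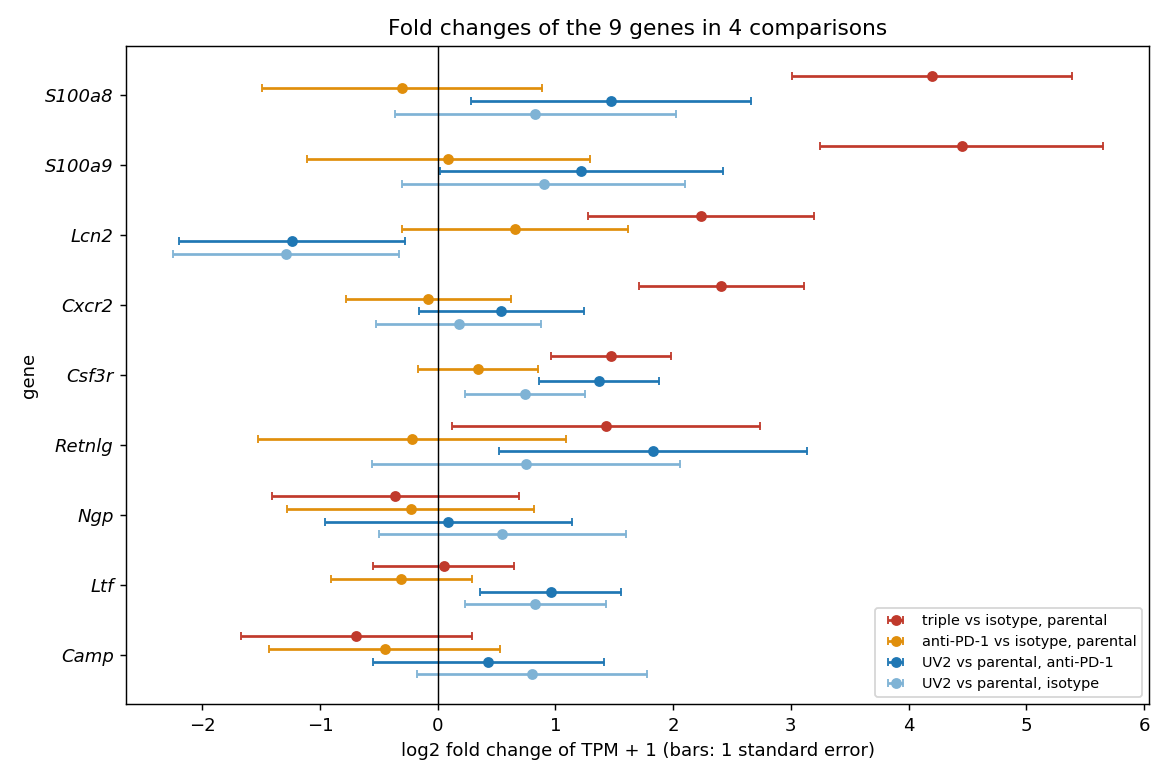
Log2 fold changes of TPM + 1 from limma with bars of 1 standard error for each of the 9 genes in 4 comparisons: triple therapy against isotype and anti-PD-1 against isotype in parental tumors, and UV2 against parental tumors under anti-PD-1 and under isotype. The triple therapy points of S100a8 and S100a9 lie at 4.20 and 4.45 with standard errors of 1.19 and 1.20, and those of Ngp, Ltf and Camp lie at -0.36, 0.05 and -0.69.

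UV2 tumors were compared with parental tumors under each antibody. Under isotype, 0 of 9 genes were called, against 1.29% of all genes, and 0 had an unadjusted limma p under 0.05, against 17.8% of all genes. Of the 9 log2 fold changes, 8 were positive with a median of 0.75, against -0.04 over all genes. Lcn2 was the exception at -1.29 ± 0.96 (limma adjusted p = 0.534). The values of Ngp, Ltf and Camp, 0.55, 0.83 and 0.80, rested on UV2 isotype replicate 2 and were -0.92, -0.08 and -0.68 without it. Those of S100a8 and S100a9 were -0.07 and -0.09 and that of Retnlg was 0.08 without that library, and 3 of the 9 log2 fold changes were then positive, with a median of -0.08.

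Under anti-PD-1, 0 of 9 genes were called where 26.4% of all genes were, and 1 (Csf3r) had an unadjusted limma p under 0.05 against 45.1% of all genes. Csf3r averaged 34.8 ± 6.86 TPM in UV2 tumors and 13.9 ± 7.92 TPM in parental tumors (SD, n = 3 each), without overlap, for a log2 fold change of 1.37 ± 0.51 (limma adjusted p = 0.0603). This fell on the other side of the threshold with other scalings: the limma adjusted p was 0.0295 for 1.64 after median-of-ratios scaling, and 0.0314 for 1.59 after quantile normalization. A fit on these 2 groups alone gave 0.0351. Of 13592 genes, 1959 were called higher and 1782 lower after median-of-ratios scaling, and 1788 higher and 2314 lower after quantile normalization. For the fit on these 2 groups alone such counts are not given here. The median of all genes was 0.04 after median-of-ratios scaling and -0.05 after quantile normalization, against -0.21 for the values as deposited. Library weights called 6 of 9 genes, and the share of all genes they called is not given here. Ltf also did not overlap, with 1.42, 0.500 and 1.81 TPM in UV2 tumors and 0, 0.380 and 0 TPM in parental tumors (0.96 ± 0.60, limma adjusted p = 0.222). These were 2 of 9 genes, where 16.9% of all genes were higher without overlap. Retnlg had 1.83 ± 1.31, S100a8 1.47 ± 1.19, S100a9 1.22 ± 1.20 and Lcn2 -1.24 ± 0.96, and their groups overlapped.

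Monocyte and macrophage genes moved with Csf3r in this comparison. Of 14 such genes tested, 9 were called higher in UV2 tumors under anti-PD-1 against parental tumors under anti-PD-1, against 9.31% of all genes. All 14 had positive log2 fold changes, as had 38.4% of all genes. Among those called were the complement genes C1qc (1.86 ± 0.31, limma adjusted p = 0.00957) and C1qb (1.80 ± 0.30, limma adjusted p = 0.00996). The chemokine receptor Ccr2 was another (2.26 ± 0.48, limma adjusted p = 0.0140). Their summed TPM was 19590 to 20750 in UV2 anti-PD-1 libraries and 4297 to 7890 in parental anti-PD-1 libraries. Csf1r, which encodes the macrophage growth factor receptor, averaged 326.4 ± 100.9 TPM in UV2 and 151.0 ± 60.5 TPM in parental tumors under anti-PD-1 (SD, n = 3 each). All 14 were detected in every library, with 0 at 0. The part of these cells in the Csf3r difference was not tested.

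Across the 5 groups together, an F test called 0 of 9 genes, against 9.92% of all genes, and 5 of 9 had an unadjusted limma p under 0.05, against 35.2% of all genes. The smallest limma adjusted p-values were 0.0847 for S100a9, 0.0850 for S100a8 and 0.0907 for Cxcr2. By group mean, S100a8, S100a9, Cxcr2 and Retnlg all ran in the order triple therapy, UV2 anti-PD-1, UV2 isotype, parental isotype and parental anti-PD-1. Every pair of neighbours in that order overlapped, and the same held for the neighbours in the orders of the other 5 genes. Ngp, Ltf and Camp all had their highest mean in UV2 isotype, where 1 library set it.

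The 9 genes were correlated with each other over libraries on the log2 scale. Since the triple therapy libraries stood apart, r is given over the other 12, among 90 relations computed in all, with permutation p-values adjusted over these. S100a8 and S100a9 had r = 0.95 and rho = 0.94 (adjusted permutation p = 0.000225 and 0.00045), and r = 0.87 without the 2 libraries farthest from the median. S100a8 and Retnlg had r = 0.88 and rho = 0.88 (adjusted permutation p = 0.00257 and 0.00828), and r = 0.88 without the 2 farthest. Ngp and Camp had r = 0.97 and rho = 0.98 (adjusted permutation p = 0.000225 and 0.0003), and r = 0.90 without the 2 farthest. Here the 2 farthest were those from the median of the second gene named, or of the keratinocyte level. Extremes of the first gene could therefore remain. By this rule each of these pairs kept an r of 0.87 to 0.90. Ngp and Ltf had r = 0.86 and rho = 0.62 (adjusted permutation p = 0.0166 and 0.105), but r = 0.41 without the 2 farthest. Ltf and Camp had r = 0.90 and rho = 0.69 (adjusted permutation p = 0.0164 and 0.0681), and r = 0.80 without the 2 farthest. S100a8 and Cxcr2 had r = 0.63 and rho = 0.66 (adjusted permutation p = 0.0848 and 0.0773). Ngp and Cxcr2 had r = -0.34 and rho = -0.46 (adjusted permutation p = 0.500 and 0.256). With the keratinocyte level, S100a8 had r = -0.06 and rho = 0.10, and Cxcr2 r = -0.29 and rho = 0.29, over the same 12 libraries (adjusted permutation p = 0.531 to 0.912). That level was 3.84 in UV2 anti-PD-1 replicate 3 and 0.71 to 0.97 in the others, so these r rest largely on 1 library. Without the 2 farthest, r was -0.01 for S100a8 and 0.54 for Cxcr2. Over all 15 libraries r was 0.79 for S100a8 and 0.77 for Cxcr2 (adjusted permutation p = 0.0166 and 0.0193). By rank, rho was 0.47 and 0.59 (adjusted permutation p = 0.182 and 0.0772). Without the 2 farthest of the 15, r was 0.08 and -0.10. The 3 triple therapy libraries are too few for an r of their own.

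For each gene, the other genes with the most similar log2 levels over the 15 libraries were found by Pearson's r, as a description. Stfa2l1, a stefin A family gene, was among the nearest 3 of both S100a8 (r = 0.915) and S100a9 (r = 0.924), and so was Efna1, an ephrin ligand (r = 0.927 and 0.921). Over the 12 libraries without triple therapy these r were lower, 0.657 and 0.715 for Stfa2l1 and 0.734 and 0.724 for Efna1. Those of the Csf3r partners named next were 0.973 to 0.977 there. Csf3r was most like Ttc38 (r = 0.979), Sh2d3c (r = 0.976) and Creg1 (r = 0.970). Cxcr2 was most like Slc16a12 (r = 0.956), and Retnlg like Fam167b (r = 0.962) and the chemokine gene Ccl9 (r = 0.931). Ngp had lower values, with Prg2, an eosinophil granule protein, at r = 0.763 and Prtn3, a primary granule protease, at r = 0.721. Camp was nearest to Cd79a, a B cell receptor subunit (r = 0.774), and Ltf to Tslp (r = 0.874). All of these partners of Ngp, Ltf and Camp had their highest level in UV2 isotype replicate 2. Lcn2 was nearest to the noncoding host gene Gas5 (r = 0.856).

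Other neutrophil genes were taken from 4 lists. Under triple therapy against isotype, 0 of the 10 other secondary and tertiary granule genes, 0 of the 11 surface and receptor genes and 0 of the 16 cytosolic and regulatory genes tested were called. Their log2 fold changes were positive for 10 of 10, 11 of 11 and 15 of 16, with medians of 1.46, 1.30 and 0.98, and under quantile normalization for 8, 11 and 13. Of all genes tested, 64.2% were positive, with a median of 0.12, and 12 of 14 monocyte and macrophage genes were, with a median of 0.45. The lists hold genes such as Lyz2, Fcgr4, Ncf1 and Ncf4, which monocytes and macrophages also express. The part of these cells was not tested. The collagenase Mmp8 averaged 12.2 ± 9.33 TPM under triple therapy and 0.680 ± 0.249 TPM under isotype (SD, n = 3 each), a log2 fold change of 2.76 ± 0.50 (limma adjusted p = 0.104). The formyl peptide receptor Fpr1 averaged 21.3 ± 7.86 TPM under triple therapy and 3.29 ± 2.29 TPM under isotype (2.44 ± 0.43, limma adjusted p = 0.104). Irg1, which encodes the itaconate-producing enzyme of activated myeloid cells, averaged 32.6 ± 9.70 TPM under triple therapy and 5.32 ± 1.10 TPM under isotype (2.38 ± 0.37, limma adjusted p = 0.0592). Of the primary granule genes only Ctsg and Prtn3 were tested, at 0.11 ± 0.71 and -0.01 ± 0.59.

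The ligands of Cxcr2 were measured as well. Cxcl1 had 8.54, 11.3 and 7.45 TPM under triple therapy and 0.500, 2.56 and 0.960 TPM under parental isotype, without overlap, for a log2 fold change of 2.19 ± 0.34 (limma adjusted p = 0.0592). Unlike S100a8, it was similar in the 3 triple therapy libraries. Cxcl2 had 90.6, 2.44 and 5.62 TPM under triple therapy and 0, 0 and 0.840 TPM under isotype, and Cxcl5 had 92.8, 18.2 and 50.7 TPM under triple therapy and 4.84, 3.01 and 17.3 TPM under isotype. Csf3, the gene of G-CSF, had 3.29, 0.700 and 0.470 TPM under triple therapy and at most 0.330 TPM in the other 12 libraries. Keratinocytes and macrophages also make these factors. Of 9 attractant and growth factor genes tested, 9 had positive fold changes with a median of 1.92 (8 under quantile normalization) and 0 were called.

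In UV2 against parental tumors under anti-PD-1, where Csf3r missed the threshold, some of these other genes passed it. Called higher were 4 of the 11 surface and receptor genes, 6 of the 16 cytosolic genes, 1 of the 10 granule genes and 1 of the 9 attractants, against 9.31% of all genes. The surface genes included Fpr2 (2.12 ± 0.51, limma adjusted p = 0.0198), Fcgr4 (2.14 ± 0.54, limma adjusted p = 0.0216) and Fpr1 (1.60 ± 0.43, limma adjusted p = 0.0256). Cytosolic genes included Ncf1 and Ncf4, subunits of the phagocyte oxidase, at 1.56 ± 0.29 and 1.32 ± 0.29 (limma adjusted p = 0.0110 and 0.0160). The granule gene was lysozyme Lyz2 (1.07 ± 0.26, limma adjusted p = 0.0202) and the attractant Tnf (1.29 ± 0.19, limma adjusted p = 0.00927). Fcgr4, Lyz2, Tnf, Ncf1 and Ncf4 are also expressed by monocytes and macrophages, whose genes rose in the same comparison, and the share of each cell type was not tested.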

How the data were processed

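RNA of 15 bulk grafts (5 groups of 3) had been sequenced. The authors deposited TPM values for 23420 gene rows, made with Bowtie2 and RSEM on mm10 and GRCm38, per the submitters' processing notes; versions and the annotation are not given in the sources used here. Each column sums to 1000000, so depth is unknown, no counting interval is given, and a 0 can be a failed estimate. Groups came from the labels, and 0 columns were left unused.

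The 13592 genes at 1 TPM or more in at least 3 libraries were analysed on the log2(TPM + 1) scale, which lowers the fold changes of scarce genes. limma 3.58.1 in R 4.3.3 fitted 1 model with a mean per group (eBayes with trend and robust, 10 residual degrees of freedom), two-sided, with Benjamini-Hochberg adjustment over all genes tested in a comparison. The fit was tested on simulated data for triple therapy against isotype, over 13592 genes. Changes were planted only in genes averaging at least 5 TPM with a replicate SD under 1 on the log2 scale. The fit called 82% of 100 genes changed by 2 and 97% of 100 changed by 3 on that scale, and 7.25% of the genes it called were false. S100a8, S100a9, Lcn2, Retnlg, Ngp and Camp had residual SDs of 1.18 to 1.60, so these rates do not hold for them. Nor do they hold for Ltf, whose highest group mean was 2.75 TPM, in UV2 isotype. Ratios were compared by exact permutation, correlations by 100000 permutations in scipy 1.17.1. The members and lists were chosen with earlier results of these data known. Named were all 9 members, the 3 genes most like each (some are not reported here), and, per list and comparison, the 4 called genes of smallest p at most, or 2 uncalled ones, besides single markers and chemokines fixed by name. Ly6g was not matched and is not used here. Alternatives were a pseudocount of 0.1, no filter or a minimum of 5 TPM, 2 other scalings, the replicate number as a block, library weights, a keratinocyte covariate, the compared groups alone, and leaving out each library.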

Additional observations from a re-analysis of the deposited data

How the results depend on the processing

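As reported above, 0 members were called in any comparison. Of the fold changes recomputed for each member, setting and comparison, 922 remained uncalled and within 1 replicate SD of the reported value, 29 moved by more and remained uncalled, and 27 passed the threshold, each of these in the reported direction. A pseudocount of 0.1, no filter (18555 genes) and the keratinocyte covariate called 0 of 9 members in every comparison. A minimum of 5 TPM (11247 genes) called 0 of the 6 members it tested, since Ngp, Ltf and Camp did not reach it in 3 libraries. Replicate numbers did not pair the libraries (30 same-number pairs, correlations of deviations from -0.542 to 0.47, median -0.075), and the replicate block called 0 members in each comparison and in the F test. Library weights called 6 members in triple therapy against isotype, 5 against anti-PD-1, 1 in UV2 anti-PD-1 against UV2 isotype, 6 in UV2 against parental tumors under anti-PD-1 and 7 in the F test. The shares of all genes called with library weights are not given here, so these counts are not a result about the members. In the weighted F test Ngp had an unadjusted limma p of 0.0202 and an adjusted p of 0.0227, so most genes tested were called. These weights ran from 0.179 for triple therapy replicate 1 to 73.8 for triple therapy replicate 3 and their estimation stopped before it converged, so the calls rest mostly on single libraries. Median-of-ratios scaling, quantile normalization and the compared groups alone each called 1 member, Csf3r, in UV2 against parental tumors under anti-PD-1. Of 13592 genes, median-of-ratios scaling called 1959 higher and 1782 lower there, and quantile normalization 1788 higher and 2314 lower. The cause of the Csf3r calls was not tested.

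Leaving out 1 library gave 0 to 3 called members in both triple therapy comparisons and 0 to 4 in the F test, with 4 without triple therapy replicate 2 (S100a8, S100a9, Cxcr2 and Csf3r) and 1 without parental isotype replicate 3 (S100a9, adjusted p = 0.0475). The shares of all genes called in these fits are not given here. The log2 ratio difference of S100a8 plus S100a9 per Csf3r ran from 2.12 to 3.61, and that of Lcn2 per Csf3r from 0.34 to 1.32. Of 45 relations, 20 had an adjusted permutation p of Pearson's r under 0.05 over 15 libraries and 7 over the 12 without laser and cream. Depth is unknown, so values under about 1 TPM for Ngp, Ltf and Camp carry no stated precision.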
